A study of Mus musculus with 24 samples.

Results

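Pituitary gene expression was compared between wild-type female and wild-type male mice, 6 of each sex, which are 12 of the 24 arrays of a study of Cga loss. The samples were chosen by the sex and genotype in their titles, and the comparison was limited to autosomal genes, 11610 of the 12027 genes tested. All animals were 8 weeks old and of the strain given as Mixed C57Bl6j 129S2SvPas, and the wild types were littermates of the Cga-deficient animals. Total RNA from the pituitary gland of each mouse was hybridised to its own array, a bead array that reports 1 brightness per probe. The 6 mutant females and 6 mutant males, which lack Cga, served as a second comparison of the sexes. The labels give no stage of the oestrous cycle, no time of day and no litter, so the p-values measure the spread between these animals only. The gland holds hormone cells of several types beside vessels, connective tissue and the neural lobe, and fewer cells of a type cannot be told apart from less RNA per cell.

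Gonadotropes, the cells that make luteinizing hormone and follicle-stimulating hormone, are driven by pulses of gonadotropin-releasing hormone from the hypothalamus. The gonads answer with oestradiol, progesterone, testosterone and inhibin, which act back on the pituitary, and activin made within the gland raises transcription of Fshb. Oestradiol also acts on lactotropes, the prolactin cells, through the receptor encoded by Esr1, and in rats it is known to induce Gal and Pgr in the gland. Cga encodes the alpha subunit shared by luteinizing hormone, follicle-stimulating hormone and thyrotropin, so animals without it make none of these hormones as active dimers. In the mutants, a loss of gonadal hormones and a loss of thyroid hormone cannot be told apart.

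The 4 promoter windows printed here belong to genes on which the comparison turns. They are Lhb and Fshb, the gonadotropin beta subunits with more signal in males, Crhbp, the largest difference in favour of females, and Greb1, a known oestrogen target. Each window runs from 250 bases before to 50 bases after the gene start in RefSeq on build GRCm38.p6, and positions are counted from the gene start as 0. Capitals mark a match to 1 of 4 motifs searched on both strands. These were the nuclear receptor hexamer AGGTCA, its extended form CAAGGTCA bound by steroidogenic factor 1, the cAMP response element TGACGTCA and the AP-1 site TGANTCA. Every CAAGGTCA match is also an AGGTCA match.
Lhb, chr7:45420696-45420995, plus strand: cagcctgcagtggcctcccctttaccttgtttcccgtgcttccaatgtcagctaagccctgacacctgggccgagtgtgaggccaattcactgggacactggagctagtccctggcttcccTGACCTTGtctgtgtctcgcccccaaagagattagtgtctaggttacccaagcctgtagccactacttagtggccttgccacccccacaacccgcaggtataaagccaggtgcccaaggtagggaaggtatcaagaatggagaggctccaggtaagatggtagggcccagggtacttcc
Fshb, chr2:107059602-107059901, minus strand: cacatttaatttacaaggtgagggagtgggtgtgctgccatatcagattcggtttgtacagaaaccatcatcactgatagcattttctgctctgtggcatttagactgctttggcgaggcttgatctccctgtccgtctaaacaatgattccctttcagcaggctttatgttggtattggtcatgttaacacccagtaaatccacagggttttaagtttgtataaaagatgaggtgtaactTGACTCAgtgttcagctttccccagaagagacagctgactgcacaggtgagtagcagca
Crhbp, chr13:95444782-95445081, minus strand: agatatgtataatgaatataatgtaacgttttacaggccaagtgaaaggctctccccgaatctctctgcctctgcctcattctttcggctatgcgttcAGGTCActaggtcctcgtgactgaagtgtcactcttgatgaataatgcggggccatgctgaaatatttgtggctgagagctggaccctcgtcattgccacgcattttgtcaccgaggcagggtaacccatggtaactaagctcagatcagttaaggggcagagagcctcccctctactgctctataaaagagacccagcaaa
Greb1, chr12:16800837-16801136, minus strand, the first of 2 starts: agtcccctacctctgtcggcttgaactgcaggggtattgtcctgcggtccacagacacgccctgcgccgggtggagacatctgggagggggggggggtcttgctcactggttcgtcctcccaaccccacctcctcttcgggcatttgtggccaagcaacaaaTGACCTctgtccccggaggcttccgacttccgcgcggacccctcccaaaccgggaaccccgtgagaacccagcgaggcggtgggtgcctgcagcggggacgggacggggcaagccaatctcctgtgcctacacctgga

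In the Lhb window the steroidogenic factor 1 motif lay at -129 to -122 as its reverse complement, and the Fshb window held an AP-1 match at -9 to -3. The hexamer stood at -152 to -147 in Crhbp and at -88 to -83 in Greb1. Over the 9356 autosomal genes with a window, 15.0% held the hexamer, against 14 of 95 (14.7%) with at least 2-fold more signal in females and 22 of 88 (25%) with at least 2-fold more in males. CAAGGTCA was found in 1.3%, 2.1% (2 genes) and 5.68% (5 genes) of these 3 groups. TGACGTCA was matched in 3.53%, 1.05% (1 gene) and 3.41% (3 genes), and TGANTCA in 6.61%, 2.1% (2 genes) and 5.68% (5 genes). A match is a run of letters, not a site shown to be bound.

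A gene was called when its adjusted p fell under 0.05 over all 12027 genes (limma, 1 model over the 4 groups, Benjamini-Hochberg). By this rule 3159 autosomal genes (27.2%) differed between wild-type females and males, 1436 with more signal in females (12.4%) and 1723 with less (14.8%). Most of these differences were small, with a median size of 0.47 on the log2 scale. A difference of at least 2-fold was reached by 250 genes (2.15%), of which 128 were higher in females (1.1%) and 122 lower (1.05%). This count depended on the processing: it was 94 without background correction and 157 among genes detected on all 12 wild-type arrays. At least 4-fold differences numbered 24 in favour of females and 6 in favour of males. For 1287 genes (11.1%) the 6 female arrays and the 6 male arrays did not overlap.

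The background of the arrays was wider in wild-type males than in any other group. The SD of the signal of undetected probes was 12 to 17.4 intensity units on wild-type male arrays and 8.66 to 9.84 on wild-type female arrays, with no overlap. The mutant sexes overlapped, at 9.0 to 10.4 in males and 8.18 to 10.0 in females. Fewer probes were detected in wild-type males, 39.7% to 43.1% against 43.9% to 46.4% in wild-type females, and the lowest detected signal was 5.52 to 5.79 log2 against 5.32 to 5.46. With the background SD of each array added to the model, 328 autosomal genes were called, 306 of which were among the 3159 and pointed the same way. In that fit the median standard error rose from 0.117 to 0.227, and 3105 of the 3159 differences (98.3%) kept their sign. Of the 250 genes of the 2-fold groups, 125 stayed called and 248 kept their sign. When every signal under 5.79 was raised to that value, the lowest detected level on the poorest array, 2923 genes were called and 244 of the 250 remained called. With a scaling by the 75th percentile in place of quantile normalization, 1765 genes were higher and 1384 lower in females, 56.0% higher against 45.5%. In separate fits of the arrays with the lower and the higher 12 title numbers, 3 per group in each, 1350 and 944 genes were called, 590 of them in both and all 590 in the same direction. Across 5 equal classes of the genes by brightness, from the dimmest to the brightest, 23.9%, 36.2%, 27.5%, 24.9% and 23.6% were called. Xist was detected on all 6 wild-type female and on no wild-type male arrays, and Eif2s3y and Kdm5d on all male and no female arrays, so sex matched the labels.

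**Figure D1:**
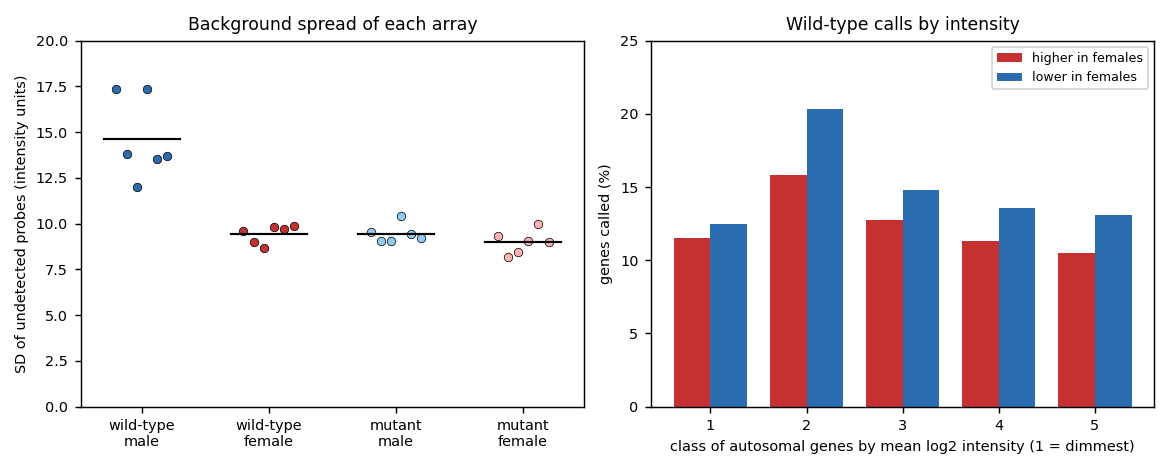
Left, SD of the intensity of undetected probes on each of the 24 arrays (points) with the group mean (line). The wild-type male arrays lie between 12 and 17.4, above all other arrays. Right, percentage of autosomal genes called higher (red) or lower (blue) in wild-type females in each of 5 equal classes of mean log2 intensity. Calls occur in every class, most in class 2, at 36.2%.

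The genes of both gonadotropin beta subunits were lower in females. Fshb, which encodes the follicle-stimulating hormone beta chain, measured 11.23, 11.62 and 12.23 (lowest, median and highest log2 intensity) in wild-type males and 7.09, 8.65 and 10.31 in wild-type females. All 6 females lay below all 6 males, and the females spread over more than 3 log2 units. The difference was -2.97 ± 0.34 (log2 ± SE, n = 6 each, limma adjusted p = 4.1e-07), or 7.84-fold. Lhb, the beta subunit of luteinizing hormone, read 13.72, 13.90 and 14.29 in males against 12.70, 12.82 and 13.03 in females, again with no overlap (-1.12 ± 0.13, limma adjusted p = 2.9e-07). Both held with the background SD in the model, at limma adjusted p = 0.029 for Fshb and 0.003 for Lhb.

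The common subunit and the receptor of the hypothalamic signal did not part the sexes in the same way. Cga read 14.68 to 14.89 in males and 14.68 to 14.91 in females, a difference of 0.00 ± 0.10 (limma adjusted p = 0.99). Gnrhr, the receptor for gonadotropin-releasing hormone, read 10.08 to 11.12 and 9.49 to 10.80 (-0.22 ± 0.27, limma adjusted p = 0.59). Of 8 gonadotrope markers tested, 3 were lower in females (Fshb, Lhb and Tgfbr3l, an inhibin B co-receptor of gonadotropes) and 1 was higher (Foxp2, a forkhead transcription factor). Tgfbr3l differed by -0.50 ± 0.11 with no overlap, and Foxp2 by 0.64 ± 0.15 with overlap. Other Foxp2 probes gave 0.57 and, without a call, 0.15. Neither Tgfbr3l nor Foxp2 remained called with the background SD in the model (limma adjusted p = 0.10 and 0.38). The median over the 8 was -0.19, against 0.00 over all autosomal genes, of which 14.8% were called lower and 12.4% higher. The orphan nuclear receptor Nr5a1, which is steroidogenic factor 1, differed by -0.04 and Foxl2 by -0.16, neither called.

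Among 12 tested genes of the activin, inhibin and follistatin system, 5 were lower in females and none higher. That is 41.7% called, against 27.2% of all autosomal genes, where 14.8% were lower and 12.4% higher. Inhba, which encodes the activin A subunit, read 6.72, 7.05 and 7.21 in males and 5.82, 6.06 and 6.52 in females (-0.89 ± 0.14, limma adjusted p = 3.0e-05), with no overlap. Tgfbr3, betaglycan, an inhibin co-receptor, was lower by the same test (-0.77 ± 0.11), as were Inha, the inhibin alpha subunit (-0.45), Fstl1 (-0.38) and Smad3, a signal transducer of activin (-0.37). The call of Smad3 was lost when any 1 of 7 arrays was left out, and the count fell from 5 to 3 without female 1, 2 or 5 or without male 4, 5 or 6. With the background SD in the model none of the 5 was called. The list median was -0.06.

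**Figure D2:**
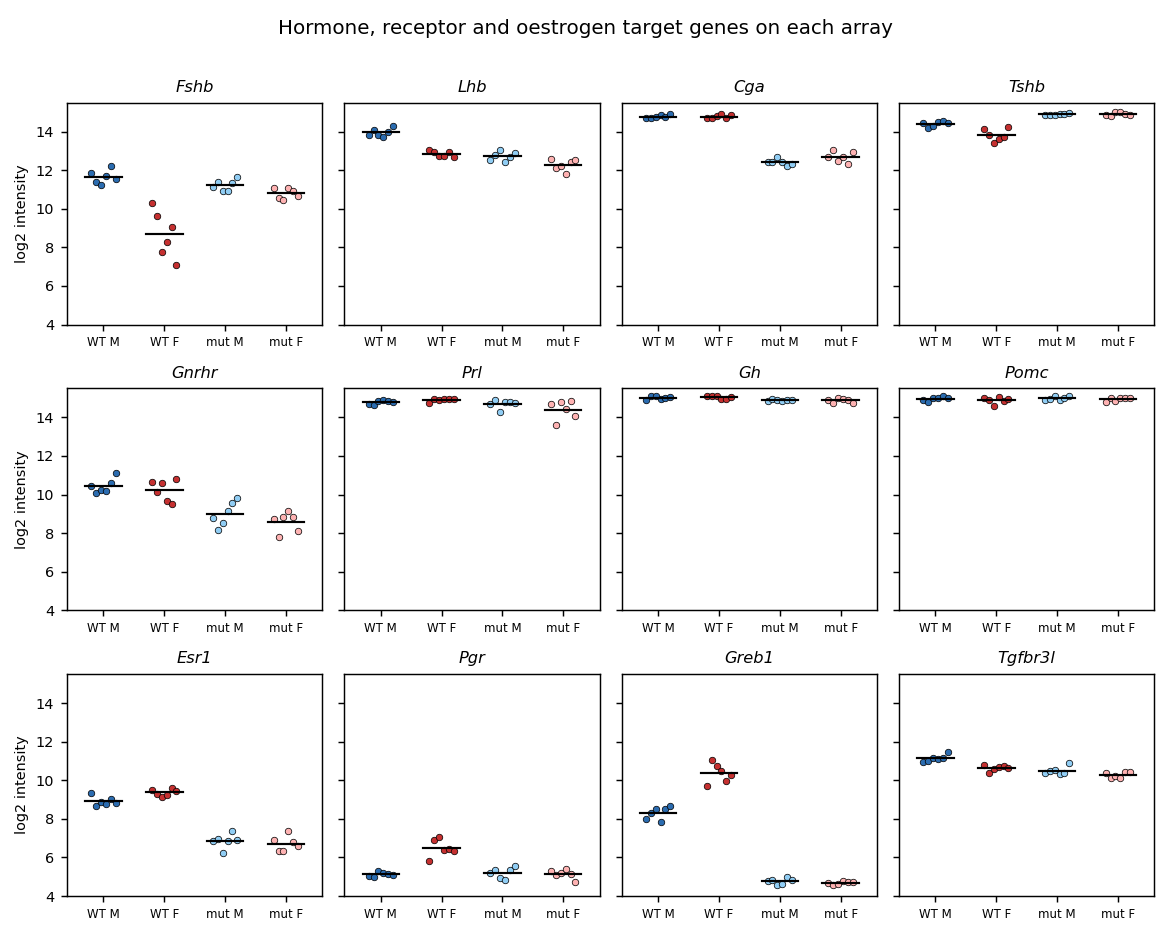
Log2 intensity of 12 hormone, receptor and oestrogen target genes on each array, 6 points per group with the group mean as a line (WT, wild type; mut, mutant; M, male; F, female). Fshb, Lhb, Pgr and Greb1 part the wild-type sexes without overlap, and the mutant sexes overlap for each of these 4. The mutant averages of Greb1 lie under the lowest detected level. Cga, Prl, Gh and Pomc lie near the top of the scale in wild types of both sexes.

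The genes of the other anterior pituitary hormones differed less. Tshb, the beta subunit of thyrotropin, was lower in females, at 13.41, 13.77 and 14.23 against 14.17, 14.44 and 14.55 in males (-0.58 ± 0.10, limma adjusted p = 0.00018), with 1 female array above the lowest male. With the background SD in the model its adjusted p was 0.35. Gh, growth hormone, differed by 0.03 ± 0.06, Prl, prolactin, by 0.11 ± 0.15, and Pomc, the precursor of corticotropin, by -0.08 ± 0.08, none called (limma adjusted p = 0.81, 0.63 and 0.50). These 3 probes and Cga read 14.60 or more on every wild-type array, close to the highest signals of the arrays, where differences can be compressed.

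Receptors and regulators of somatotropes, the growth hormone cells, did part the sexes although Gh was not called. Of 8 somatotrope markers, 6 were lower in females and 1, the transcription factor Neurod4, was higher. Over all autosomal genes 14.8% were lower and 12.4% higher. Sstr2 and Sstr5, receptors for the inhibitory peptide somatostatin, differed by -1.66 ± 0.26 and -1.20 ± 0.14, each with no overlap between the sexes. Ghsr, the ghrelin receptor (-0.79), Ghrhr, through which the hypothalamus stimulates growth hormone release (-0.70), and Foxo1 (-0.36) were lower too. Dlk1, a Notch ligand homologue, differed by -0.48 by the probe that represents it, but its other kept probe gave -0.02 and a scaling by the 75th percentile turned its sign (0.21). Neurod4 read 9.22 to 10.22 in males and 10.20 to 11.42 in females (1.08 ± 0.19). The list median was -0.59, and with the background SD in the model none of the 7 was called. In that fit the difference was -0.23 for Sstr2, -0.78 for Sstr5 and 1.17 for Neurod4.

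Of 8 thyrotrope markers 4 were lower in females and none higher, where 14.8% of all autosomal genes were lower and 12.4% higher. Gata2, a transcription factor of thyrotropes and gonadotropes, read 10.55, 11.10 and 11.39 in males and 9.32, 9.72 and 10.57 in females, where 1 female array just passed the lowest male (-1.24 ± 0.19, limma adjusted p = 3.2e-05). Rxrg, a retinoid X receptor that restrains thyrotropin, differed by -0.61 and Eya3 by -0.64, but the 2 other Eya3 probes were not called (-0.17 and 0.01). Gata2 and Rxrg, 2 of the 4, remained called with the background SD in the model. None of 4 corticotrope and melanotrope markers and none of 9 folliculostellate and stem cell markers was called, with medians of -0.08 and 0.03. The share called over all autosomal genes was 27.2%.

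Lactotrope genes went both ways. Of 5 tested 3 were higher in females and 1 lower, against 12.4% and 14.8% of all autosomal genes. Agtr1a, an angiotensin II receptor, was lower in females, reading 8.38, 8.98 and 9.39 against 10.17, 10.39 and 10.65 (-1.50 ± 0.17, limma adjusted p = 2.4e-07), with no overlap. Angpt1, angiopoietin 1, was higher by 1.2 ± 0.20. Drd2, the dopamine receptor that restrains prolactin release (0.38 ± 0.12), and Esr1 (0.47 ± 0.17) were higher by small margins, and the call was lost when any 1 of 6 arrays (Drd2) or of 7 arrays (Esr1) was left out. The count of the 5 tested markers that were called thus fell from 4 to 2 without female 1 or 5 or without male 4. Agtr1a alone of the 4 remained called with the background SD in the model.

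Of 21 tested genes known to be induced by oestrogen, 9 were higher in females and 4 lower, with a list median of 0.13. That is 61.9% called, against 27.2% of all autosomal genes, where 12.4% were higher and 14.8% lower. The list was chosen with earlier results of these data known. Crhbp and Gal, described with the largest differences, are among the 9. Greb1 read 7.82, 8.40 and 8.67 in males and 9.68, 10.36 and 11.07 in females (2.07 ± 0.17, limma adjusted p = 2.1e-09), with no overlap, and its other probe gave 2.25. Pgr, the progesterone receptor, was detected on all 6 female and none of the 6 male arrays and was at least 1.82-fold higher in females, a bound taken against the lowest detected signal of each male array. Vip, vasoactive intestinal peptide (2.30 ± 0.44), Stat5a, a transducer of prolactin signalling (1.46), and Klk1, tissue kallikrein (1.61 ± 0.22), were higher as well, as was Myc, which was detected on 5 female and no male arrays. Nmu, neuromedin U (-0.78), Cish, a feedback inhibitor of Stat5 signalling (-0.67), Igfbp5 (-0.47) and Pdzk1 were lower. Pdzk1 was detected on 4 male and no female arrays, was not called with every signal raised to 5.79 (-0.17, limma adjusted p = 0.39), and changed sign with the background SD in the model (0.21). With the background SD in the model 5 of the 13 remained called.

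Of 14 androgen-responsive genes 5 were lower in females and 1 was higher, where 14.8% of all autosomal genes were lower and 12.4% higher. Fkbp5, a chaperone induced by androgens and glucocorticoids, read 9.79, 9.98 and 10.17 in males and 8.10, 8.70 and 9.14 in females (-1.30 ± 0.13, limma adjusted p = 7.1e-08), with no overlap. Slc45a3, known as prostein (-1.72 ± 0.20), Homer2, a postsynaptic scaffold protein (-1.31 ± 0.17), Pdk4, a brake on glucose oxidation (-0.80), and Mt1, a metallothionein (-0.30), were lower too. Tmprss2, a serine protease, was higher by 0.68 ± 0.19, with overlap. The list median was -0.16. Fkbp5 and Slc45a3, 2 of the 6, remained called with the background SD in the model, and the sign of Pdk4 turned (0.10, limma adjusted p = 0.90).

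Steroid receptors, coregulators and enzymes were mixed, where 12.4% of all autosomal genes were called higher in females and 14.8% lower. Ncoa2, a coactivator of nuclear receptors, was lower in females (-0.79 ± 0.10, no overlap), though its other kept probe was not called (-0.40). Gper1, a membrane receptor reported to bind oestradiol, differed by -0.46 ± 0.16, a call lost without any 1 of 5 arrays. Of the 7 genes tested 2 were higher and 2 lower, and the count of 4 fell to 2 without male 4 or female 5. Nr3c1, the glucocorticoid receptor, was detected on 3 male and 1 female arrays and was not called (limma adjusted p = 0.11). Among 13 enzymes 4 were higher in females and 1, Ugt8a, lower. Akr1c14, a 3-alpha-hydroxysteroid dehydrogenase, was detected on all female and no male arrays and was at least 3.45-fold higher. Hsd11b1, which regenerates active glucocorticoid, was higher by 0.53 ± 0.14 without overlap, Hsd17b11 by 0.56 and Hsd17b4 by 0.41. Pgr alone of the 4 receptors and coregulators and Akr1c14 alone of the 5 enzymes remained called with the background SD in the model.

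The 2 largest differences in favour of females were those of Crhbp and Reln. Crhbp, which encodes a secreted protein that binds corticotropin-releasing hormone, read 4.74, 5.08 and 6.73 in males, where 2 of 6 arrays detected it, and 11.83, 13.23 and 14.00 in females. The difference was 7.69 ± 0.39 (limma adjusted p = 1.8e-13), and 7.14 with every signal raised to 5.79. Reln, reelin, a matrix glycoprotein known for guiding neurons, read 4.94, 5.07 and 5.63 in males, detected on 1 array, and 11.95, 12.80 and 13.22 in females (7.53 ± 0.18, limma adjusted p = 3.9e-21; 6.93 with the raised floor). For both genes the lowest female array stood more than 5 log2 units above the highest male.

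Gal, the neuropeptide galanin, was measured on all 12 arrays, at 8.41, 8.52 and 9.26 in males and 11.51, 12.93 and 13.44 in females (3.94 ± 0.28, 15.4-fold, limma adjusted p = 9.1e-11). Rxfp1, the relaxin receptor, was detected on every female and no male array and was at least 5.53-fold higher in females. On the same footing Ntm, the adhesion protein neurotrimin, was at least 3.86-fold higher, Chodl, chondrolectin, at least 3.30-fold, and Dmrta1, a transcription factor with a DM domain, at least 3.21-fold. Stbd1, a glycogen-binding protein, differed by 2.72 ± 0.13 and Crtac1, a secreted matrix protein, by 2.57 ± 0.23, both measured on all arrays without overlap. Olfm3, an olfactomedin, differed by 2.41 ± 0.16 and was detected on 2 male arrays. Aebp1, a matrix protein, differed by 2.48 ± 0.32 and was the only 1 of these 12 genes not called with the background SD in the model (limma adjusted p = 0.089).

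Large differences in favour of males were found beside that of Fshb. Drd4, the dopamine D4 receptor, was detected on all male and no female arrays and was at least 4.13-fold lower in females. Grem1, gremlin, an antagonist of bone morphogenetic proteins, was likewise at least 3.90-fold lower in females. Lcn2, lipocalin 2, an iron carrier of innate immunity, read 10.70, 10.81 and 11.12 in males and 7.81, 8.61 and 9.16 in females (-2.36 ± 0.32, limma adjusted p = 4.5e-06). Stac2, an adaptor of voltage-gated calcium channels (-1.98 ± 0.15), Ramp1, a partner of the calcitonin receptor-like receptor (-1.94 ± 0.30), Ntsr2, a neurotensin receptor (-1.87 ± 0.27), and Angptl4, an inhibitor of lipoprotein lipase (-1.76 ± 0.21), were detected on all 12 arrays without overlap. Cabp2, a calcium-binding protein (-1.89 ± 0.17), was detected on 5 female arrays, Liph, a lipase (-2.16 ± 0.21), and Spink8, a Kazal-type protease inhibitor (-2.13 ± 0.22), on 2, and Mgarp, a mitochondrial protein (-1.92 ± 0.19), on 1. With the background SD in the model Liph and Ntsr2 were not called (limma adjusted p = 0.057 and 0.12).

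**Figure D3:**
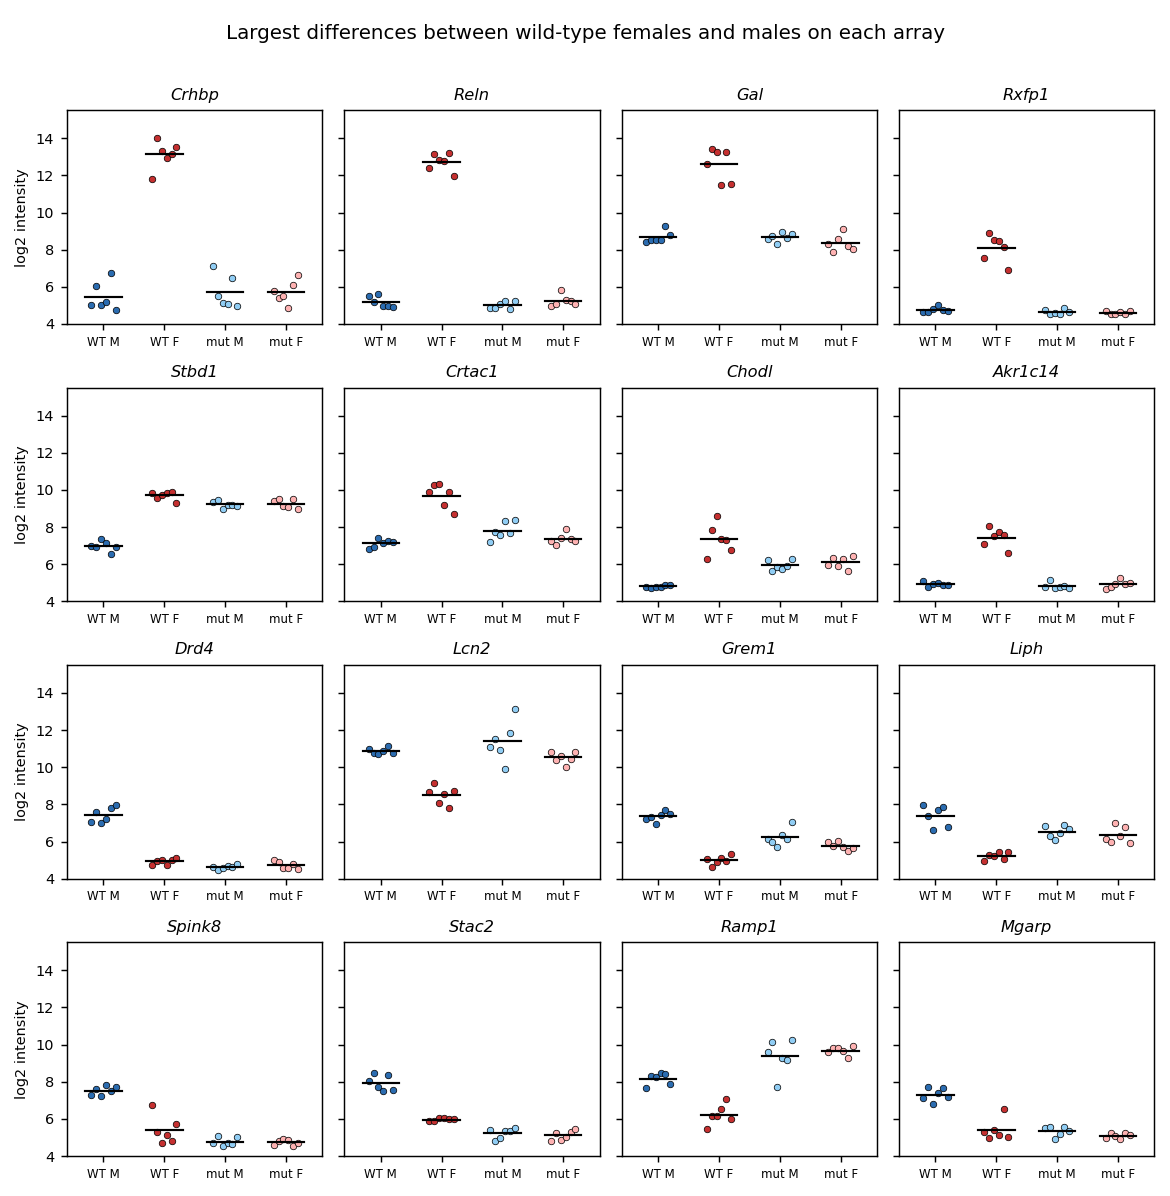
Log2 intensity of 8 genes with the largest female differences (Crhbp to Akr1c14) and 8 with large male differences (Drd4 to Mgarp) on each array, 6 points per group with the mean as a line. In each panel the wild-type sexes are separate while the mutant females and males overlap. Signals near 5 lie at or under the lowest detected level.

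Few genes differed between the sexes in the mutants by the same test. There, 3 autosomal genes were called between mutant females and males (0.0258%), with 715 at an unadjusted p under 0.05 against 4429 in wild types. None of the 250 genes of the 2-fold groups was among the 3. The shared model gives each gene the same standard error in both genotypes (median 0.117), so it does not compare their precision. The median SD within a group was 0.184 in wild-type males, 0.192 in wild-type females, 0.175 in mutant males and 0.204 in mutant females. Over the 128 genes higher in wild-type females the median difference in mutants was -0.01, and over the 122 lower ones -0.05. The wild-type medians of these genes, 1.35 and -1.21, were set by the choice of genes on the same values. The difference between the genotypes was itself called for 1582 autosomal genes (13.6%), 738 with a positive value (6.36%) and 844 with a negative one (7.27%).

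For individual genes the same contrast held at different levels. Fshb averaged 11.22 in mutant males and 10.79 in mutant females, against medians of 11.62 in wild-type males and 8.65 in wild-type females, and its sex difference was -0.43 ± 0.34 (interaction limma adjusted p = 0.0009). Lhb differed by -0.47 ± 0.13 between mutant sexes, not called (limma adjusted p = 0.35), and the wild-type difference exceeded it by 0.65 on the log2 scale (interaction limma adjusted p = 0.016). Gal averaged 8.68 in mutant males and 8.36 in mutant females, against 8.52 as the wild-type male median. Greb1 averaged 4.77 and 4.69 in mutants, below both wild-type sexes. These Greb1 averages lie under the lowest detected signal of any mutant array (5.11), where a sex difference could not be measured. Esr1 averaged 6.86 and 6.71 in mutants, while Stbd1 averaged 9.22 and 9.26, close to wild-type females. No mutant and no wild-type female array detected Drd4, and Ramp1 averaged 9.36 and 9.68, above wild-type males. Over the 128 female-high genes the mutant mean lay below both wild-type sexes for 50, between them for 57 and above both for 21, and over the 122 male-high genes for 54, 45 and 23.

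The 3 genes called between mutant sexes were Defb50, a beta-defensin (0.87 ± 0.14 higher in mutant females), Hapln4, a link protein of the extracellular matrix (1.88 ± 0.37 higher), and Aox3, an aldehyde oxidase (0.86 ± 0.15 lower). In wild types they differed by 0.05, 0.08 and 0.36, none called, and the genotypes differed in their sex difference for each of the 3 (interaction limma adjusted p = 0.006, 0.022 and 0.00031).

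**Figure D4:**
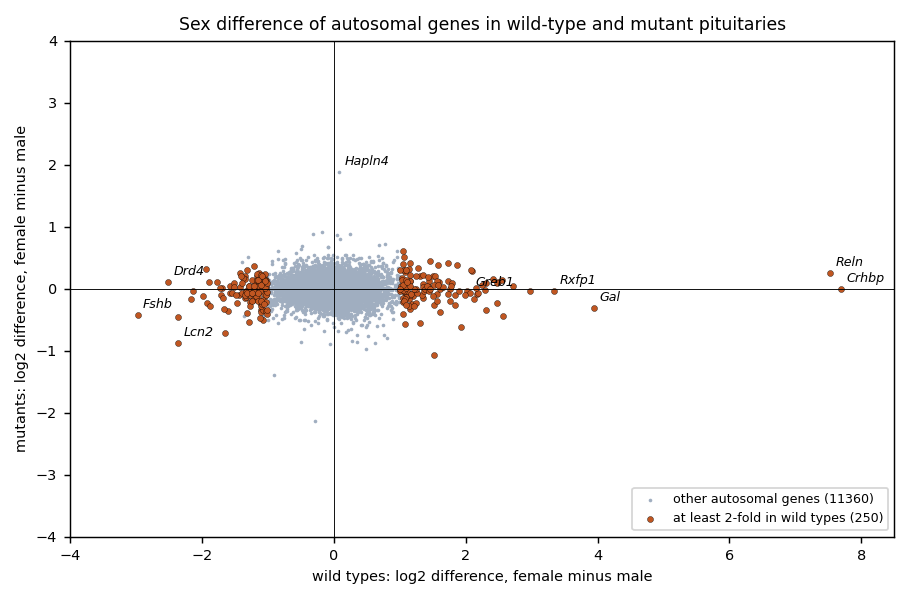
Log2 difference, female minus male, of each autosomal gene in wild types (x axis) and in mutants (y axis). Orange points are the 250 genes called with at least 2-fold difference in wild types, grey points the others. The orange points spread from -2.97 to 7.69 along x and cluster around 0 along y, and the 2 axes rest on separate arrays.

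Of 21 peptide and amine receptors, 9 were lower in females and 4 higher, where 14.8% of all autosomal genes were lower and 12.4% higher. The higher ones were Cckbr, a cholecystokinin receptor (2.02 ± 0.36), Mc3r, a melanocortin receptor (1.36 ± 0.20), Npy1r (0.65) and Drd2. The lower ones included Mc5r (-1.28) and Gpr83 (-0.69) beside those named above. Drd4 and Agtr1a, 2 of the 13, remained called with the background SD in the model. Of 12 neuropeptide genes 2 were higher, Gal and Vip, and 4 lower, among them Cartpt (-0.95), Penk (-0.42) and Grp. That is 50% called, against 27.2% of all autosomal genes. Grp was detected on 3 male and no female arrays and did not differ once every signal was raised to 5.79. Gal alone of the 6 called neuropeptide genes remained called with the background SD in the model. The summed level of the 12 genes was 2305 to 3222 intensity units in males and 4646 to 14050 in females, while the list median was -0.31. Bright genes weigh most in such a sum, and Gal, the brightest of the 12 in females, averaged 8.66 log2 in males and 12.60 in females.

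Of 33 growth factor genes 13 were lower in females and 4 higher, with a median of -0.22, where 14.8% and 12.4% of all autosomal genes were called lower and higher. Tgfbr2 and Tgfbr1, the receptors of transforming growth factor beta, differed by -0.58 ± 0.09 and -0.40 ± 0.08, though a second Tgfbr2 probe was called the other way (0.36) and 2 dimmer Tgfbr1 probes were not called. Igf2 (-0.82), Angpt2 (-0.83), Vegfa (-0.61), Pdgfra (-0.63) and Wnt5a (-0.50) were lower, and Angpt1, Igf1r (0.47), Igfbp4 (0.30) and Erbb2 (0.27) higher. The calls of Erbb2 and Igfbp4 were lost without any 1 of 10 and of 6 arrays, and a second Igfbp4 probe was not called (0.14). None of the 17 was called with the background SD in the model.

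Cell cycle genes were called in favour of females only, 15 of 30 (50%), with a median of 0.41. Over all autosomal genes 12.4% were higher in females and 14.8% lower. Birc5, survivin (0.96 ± 0.22), Plk1, a mitotic kinase (0.96), Cdc20, an activator of the anaphase-promoting complex (0.86), Prc1 (0.82), Top2a, topoisomerase II alpha (0.76), Cdk1 (0.74), Bub1b, a spindle checkpoint kinase (0.67 ± 0.17), and Mcm3, a helicase subunit, were among them. Mcm3 was undetected on all male arrays and Kif11, a spindle motor, too, and in females they exceeded the lowest detected male signal by at least 1.17-fold and 1.01-fold. Part of the list lay near the detection limit, and 20 of the 30 were detected on all 12 wild-type arrays. With every signal raised to 5.79, 9 were called, and 8 among genes detected on all 12 arrays. Without male 2 or male 5 the count was 9, and none was called with the background SD in the model. A second Bub1b probe gave -0.02. In mutants the list median was 0.21 and no member was called, with Birc5 at 0.51 and Bub1b at 0.52.

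Immediate early genes, which answer a stimulus within minutes, were called for 3 of 16 (27.2% over all autosomal genes), all higher in females, and none of the 3 remained called with the background SD in the model. Jun read 6.39, 6.55 and 6.68 in males and 6.89, 7.19 and 7.36 in females (0.62 ± 0.11), with no overlap, and Ier3 differed by 0.67. Fos ranged from 5.80 to 8.66 in males and from 7.06 to 11.59 in females (2.12 ± 0.63, limma adjusted p = 0.014), and its sign turned with the background SD in the model (-0.36). Of 10 tissue kallikreins 6 were higher in females and 1, Klk1b16, lower, with a median of 0.61. That is 70% called, against 27.2% of all autosomal genes, where 12.4% were higher and 14.8% lower. Klk1b5 differed by 1.26 ± 0.25, Klk1b21 by 0.85 ± 0.16 and Klk1b24 by 0.83 ± 0.21. Klk1b16 was detected on 5 male and 3 female arrays and was not called with every signal raised to 5.79 (limma adjusted p = 0.39). Of the 7 calls 4 were left among genes detected on all 12 arrays and none with the background SD in the model. These genes are close copies of each other, and whether their probes tell them apart was not tested.

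Genes of the secretory machinery went both ways. Scg2, secretogranin II, which gonadotropes store with luteinizing hormone, differed by -0.68 ± 0.11 and Chga, chromogranin A, by -0.88 ± 0.17, both lower in females without overlap and, for Chga, with all 3 probes. Cadps2, a priming factor of granule release, was higher by 0.68 ± 0.09. Rab3d (0.38), Dpp4 (0.40) and Chgb (0.31) were higher as well, which made 4 higher and 2 lower of 16 granule genes. That is 37.5% called, against 27.2% of all autosomal genes, with a median of -0.02 and no call left with the background SD in the model. Of 19 genes of protein folding in the endoplasmic reticulum 4 were higher in females and none lower, where 12.4% of all autosomal genes were higher. They were Derl3, detected on no male array, Sdf2l1 (0.50), Edem1 (0.34) and Dnajc3 (0.23), the count fell to 2 without male 1, male 2, female 3 or female 4, and the median of the list was 0.13. None of the 4 remained called with the background SD in the model. Of 12 cholesterol synthesis genes 2 (16.7%), Sqle (-0.42) and Msmo1 (-0.54), were lower, where 14.8% of all autosomal genes were lower. Sqle alone of these 2 remained called with the background SD in the model. In the model without it, the other kept Sqle probe gave -0.06 and was not called.

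Markers of other cell types moved with sex in part, where 12.4% of all autosomal genes were higher in females and 14.8% lower. Of 12 immune cell markers 5 were higher in females, among them the class II genes H2-Ab1 (0.75), H2-Eb1 (0.65) and H2-Aa (0.64), and Cd79b, a B cell receptor component, was lower (-0.93). None of these 6 calls remained with the background SD in the model. The summed level of the 12 was 4823 to 7362 intensity units in males and 7076 to 9472 in females. For H2-Ab1 and H2-Eb1 the mutant difference had the opposite sign (-0.58 and -0.60, neither called), and the genotypes differed (interaction limma adjusted p = 0.0015 and 0.00056). The haemoglobin genes Hba-a1, Hbb-bs and Hbb-bt were lower in females by 0.73 to 0.83 log2 units, but without single arrays, males 2, 3, 5 and 6 or females 2, 4 and 5, none was called, and the summed level of 4 red blood cell markers was 67110 to 99900 in males and 26250 to 90020 in females. Of 11 fibroblast and pericyte markers, 4 were lower (Dcn, Cspg4, Pdgfra and Col1a1) and 2 higher (Col1a2, 1.35 ± 0.18, and Mgp), at summed levels of 8159 to 11910 and 8365 to 9885. Of 11 endothelial markers 1, Cdh5, was lower, a call lost without any 1 of 5 arrays. Of 9 posterior lobe markers Col25a1, detected on no male array, and Aqp4 (0.45) were higher, 1 of them without male 2 or female 3. The 9 of that list summed to 1465 to 2187 and 1653 to 2399, with Avp and Oxt not called. The shares called, 9.09% of endothelial and 22.2% of posterior lobe markers, lay under the 27.2% of all autosomal genes. Col1a2 alone of the 6 fibroblast and pericyte calls remained with the background SD in the model, and no haemoglobin, endothelial or posterior lobe call did. The part of these cell types in the results above was not tested.

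**Figure D5:**
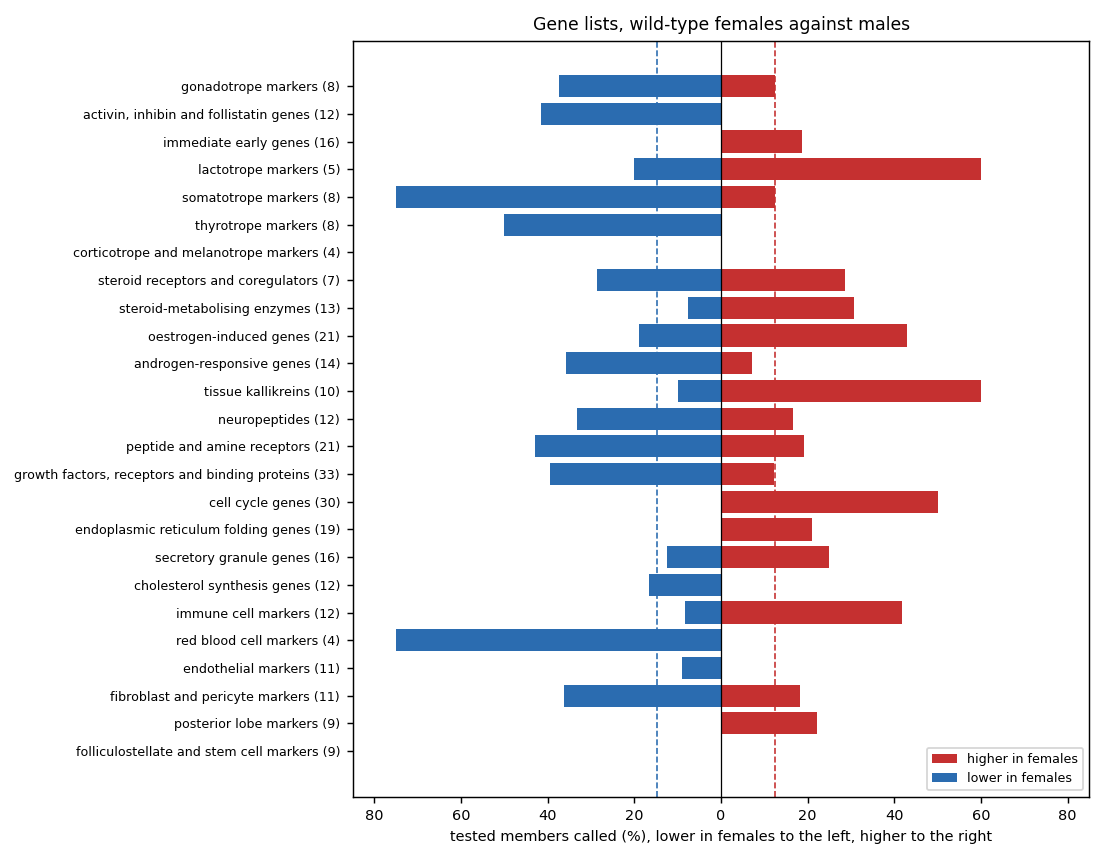
Percentage of tested members of each of 25 gene lists called higher (red, right) or lower (blue, left) in wild-type females, with the number tested in brackets. Dashed lines mark the percentages over all autosomal genes, 12.4% higher and 14.8% lower. Lists that pass the left line include red blood cell, somatotrope, thyrotrope, receptor and growth factor genes. Lactotrope, kallikrein, cell cycle, immune and oestrogen-induced genes are among those that pass the right line. Some lists, such as oestrogen-induced and lactotrope genes, pass both. The lists were chosen with earlier results of these data known.

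Single animals differed widely in some genes. Among genes detected on all 12 arrays, 17 had an SD of 1 or more in females and 8 in males. Females 2 and 3 stood apart from the other 4 in several of them. Cckbr read 6.39 and 6.43 in those females and 8.20 to 8.95 in the others, and Cntnap4, a neurexin-like adhesion protein, 6.18 and 5.88 against 8.09 to 9.09. The same females were highest for Aebp1 (11.81 and 11.58 against at most 10.12) and for Pgr (6.91 and 7.04 against at most 6.45). Fshb did not follow this division, since females 2 and 3 read 9.61 and 7.77.

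Some of the widest spreads ran across both sexes. Psmd8, a proteasome subunit, read 9.95 to 10.28 in females 1 and 5 and males 1, 3 and 4, and 7.14 to 7.58 in the other 7 wild types, with nothing between. Clasrp, a splicing regulator, parted the same 5 animals (8.53 or more) from the same 7 (6.58 to 6.84). Hjurp, a centromere chaperone, was high in males 1, 3 and 4 (11.08 to 11.33) but not set apart in females 1 and 5 (10.07 and 9.63, against up to 10.13). None of these 3 genes was called between the sexes. Supt16, a histone chaperone, read 5.92 in female 5 and 9.72 to 10.76 on the other 11 arrays.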

How the data were processed

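Total RNA (500 ng, integrity number 9.5 ± 0.13, per the labels' protocols) was amplified to biotin-labelled cRNA. The submitters' processing notes name GenomeStudio 2011.1. Per the file headers, the deposited table gives for each of 45281 probes the mean bead intensity on a linear scale, not normalized, and a detection p-value, which the authors' software computed against negative controls. It also gives the number of beads, medians of 42 to 44 per probe, and 24 columns of bead errors that were not used. The authors' second deposited table of processed intensity served as an alternative only.

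Intensities were background-corrected and quantile-normalized over all 24 arrays with neqc of limma 3.58.1 in R 4.3.3 (offset 16, controls estimated from the detection p-values). Probes with detection p under 0.05 on at least 6 arrays were kept (23133), and each gene was represented by its probe with the highest mean. Symbols came from the platform annotation and chromosomes from RefSeq on GRCm38.p6. Among 4734 autosomal genes with several kept probes, 103 had probes called in opposite directions. One linear model (lmFit, eBayes) held the 4 groups, and p-values were adjusted by Benjamini-Hochberg over 12027 genes; differences are log2 ± SE and adjusted p-values are limma's unless named otherwise. The SE and p of each gene pool the spread within all 4 groups, mutants included. With only the wild-type arrays in the fit, 2923 autosomal genes were called between the wild-type sexes. The code was tested on simulated data.

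The members and the 25 gene lists were chosen with earlier results of these data known. Named were hormone and steroid receptor genes whatever their values (Esr2 was not tested), the 12 largest differences each way with no overlap and detection throughout the brighter group, up to 4 called members of each list and those called against it, the leading genes of the interaction and of the mutant sexes, and the 6 most variable genes per sex. Other called or uncalled list members were named after their values were seen. "At least" folds set the brighter group against the higher of each dim array's lowest detected signal and the probe's own. Precision is limited by the number of arrays, 6 per group. The promoter search was limited to 4 short motifs, and 2 longer hormone response elements that had also been searched are not reported here.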

Additional observations from a re-analysis of the deposited data

Results flagged for a closer look

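On 5 occasions 1 array stood far from the other 5 of its sex by Dixon's test, which chance gives in about 1 in 20 groups, and 106 groups were examined. Wild-type female 2 read 5.99 for Nr3c1 where the next female read 5.29, female 5 read 6.52 for Mgarp (next 5.38), female 3 read 6.88 for Angptl4 (next 6.22) and female 5 read 5.92 for Supt16 (next 10.35). Wild-type male 6 read 7.16 for Snhg18, a small nucleolar RNA host gene, where the next male read 9.64.

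The sex difference differed between wild types and mutants by the interaction term for 1582 autosomal genes, and for 211 with the background SD in the model. In the log2 difference of the 2 sex differences, wild type minus mutant, the values for hormone and receptor genes were -2.54 for Fshb, -0.65 for Lhb, -0.59 for Tshb and 1.41 for Pgr. Among the genes with the largest female differences they were 7.70 for Crhbp, 7.27 for Reln, 4.25 for Gal, 3.39 for Rxfp1, 3.02 for Crtac1, 2.71 for Aebp1, 2.68 for Stbd1, 2.41 for Chodl, 2.39 for Akr1c14, 2.39 for Dmrta1, 2.25 for Olfm3 and 2.22 for Ntm. Among those with the largest male differences they were -2.62 for Drd4, -2.26 for Ramp1, -2.10 for Spink8, -1.997 for Cabp2, -1.995 for Liph, -1.90 for Grem1, -1.87 for Stac2, -1.87 for Angptl4, -1.69 for Mgarp, -1.59 for Ntsr2 and -1.48 for Lcn2. Lcn2 had a mutant difference of -0.88 ± 0.32 in the same direction, not called. No wild-type male array detected Rxfp1, Chodl, Akr1c14, Dmrta1, Ntm or Pgr, and no wild-type female array detected Drd4 or Grem1. Their values rest in part on signals under the detection limit and are not sizes, and no mutant array detected Rxfp1, Drd4 or Spink8.

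Genes with a smaller sex difference but a small interaction p were Nsmce1, a subunit of a DNA repair complex (-1.69), Gm26588 (-1.67), Tesc, a calcium-binding protein (-1.16), and Gm3336 (-1.06). Nsmce1 read 9.41, 9.69 and 9.98 in wild-type males and 7.76, 7.96 and 8.33 in wild-type females, and averaged 10.76 and 10.77 in mutant males and females. For genes leading the comparison of mutant sexes the value was -0.82 for Defb50, 1.22 for Aox3, -1.80 for Hapln4 and -0.58 for Rbm15b, an RNA-binding protein. No wild-type array detected Defb50 or Rbm15b, so their values are not sizes either.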

How the results depend on the processing

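The count of autosomal genes called between wild-type sexes, 3159, lay between 2694 and 3219 when any 1 wild-type array was left out, that of at least 2-fold differences between 243 and 280, that of mutant sexes between 2 and 4 and that of the interaction between 1379 and 1718. With the background SD in the model the wild-type count fell to 328 and the interaction to 211. The 2-fold count was 94 both with raw log2 intensity and quantile normalization and with the authors' table, and 157 among genes detected on all 12 wild-type arrays. In these 3 settings 1 gene was called between mutant sexes, and 0 were by limma with only the mutant arrays in the fit (715 had an unadjusted p under 0.05 in the fit of all 4 groups). In the first 12 array numbers 1350 genes were called between wild-type sexes, 0 between mutant sexes and 177 in the interaction, and in the last 12 they numbered 944, 1 and 305, with fewer arrays in each fit. This split was chosen after seeing the data.

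Over single named genes and settings that left out 1 array, 1471 values kept direction and call, 97 lost the call, 3 gained one and 13 turned sign. Over the other settings the numbers were 1700, 210, 3 and 24. Signs turned as follows, in each case without a call, and the cause was not tested. The 75th percentile scaling gave 0.18 for Pomc and 0.21 for Dlk1. The background SD covariate gave -0.0928 for Cga, -0.14 for Gh, -0.36 for Fos, 0.21 for Pdzk1, 0.10 for Pdk4, -0.0222 for Defb50, 0.16 for Rbm15b, -1.46 for Rab6b, 1.51 for Psmd8, 0.34 for Hjurp and 0.82 for Clasrp. A block for raw background gave -0.0115 for Cga and -0.0522 for Rab6b, and array weights -0.0313 for Hapln4. The first 12 array numbers gave 0.20 for Gnrhr, -0.30 for Hapln4, 0.44 for Supt16, 0.54 for Cdkn2b and -0.16 for Snhg18, and the last 12 gave -0.00394 for Cga, 0.0344 for Rbm15b and -0.91 for Rab6b. Leaving out single arrays turned the sign of Cga (-0.0229 to 0.0266), Hapln4 (-0.13 to 0.23), Rab6b (-0.20 to 0.68) and Supt16 (-0.713 to 0.24).

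No paired analysis was possible because the array numbers in the titles are all different and no label ties animals of the 2 sexes to a litter or day. A block for slide was not run, since no slide is given in the sources used here. The wider background of wild-type male arrays limits what can be said of genes near the detection limit.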
